A study of Homo sapiens with 8 samples.

Results

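Intergenic long noncoding RNA genes, called lincRNA genes here, were taken as the genes that release 29 of the GENCODE human annotation types as lincRNA. Genes with symbols starting SNHG and NEAT1, MALAT1, TUG1, NORAD, MEG3, GAS5 and HOTAIR were set aside. Of 7629 such genes in the annotation, 13 were set aside by name and 7616 were kept. 4124 of these had at least 1 transcript of 300 nt or more in the deposited tables, out of 38658 genes in all. The other kept genes were either shorter or not matched, the latter numbering 3302. The choice used annotation only and no expression value.

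The study profiled total RNA of HEK293 cells, an established line derived from human embryonic kidney, and its title places it beside a map of the RNA sites bound by the protein AUF1. AUF1 is the product of HNRNPD and exists as 4 splice isoforms named p37, p40, p42 and p45. Each of 8 groups was 1 library: cells transfected with a control siRNA, with an siRNA against AUF1, with an empty vector, with a Flag-AUF1 construct of a single isoform, 1 group for each, or with the 4 constructs together, called all isoforms below. All 8 groups were transfected HEK293 cells in the same medium, ribosomal RNA was removed, and both polyadenylated and other RNA was amplified. With 1 library in each group no difference has a replicate check, so differences below are given as values and counts with no p-value.

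LincRNAs are transcribed by RNA polymerase II from loci between protein-coding genes, are capped and mostly spliced, and carry no long open reading frame. Many stay in the nucleus, many are held at low levels by the exosome and other nuclear decay machinery, and a few act in chromatin regulation, as microRNA precursors or as binding platforms for proteins. AUF1 binds AU-rich and U-rich stretches, classically repeats of the pentamer AUUUA in the 3′ untranslated regions of labile mRNAs, and is known to promote or oppose the decay of its targets and to bind long noncoding RNAs.

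The stretches below show what that motif looks like in the transcripts this account turns on. They are 60-base windows of the longest matched transcript, 5′ to 3′, in DNA letters from the GENCODE 29 transcript sequences, with each ATTTA in capitals. AC097532.1 and C22orf34 were the most abundant lincRNA genes that exceeded 2-fold with AUF1 siRNA, each with 2 copies of ATTTA in the transcript. AC099654.1 was the next most abundant of that set and has none, so its first 60 bases are shown. AC004448.2, with 1 copy, and CYTOR, with 2, were abundant genes whose level stayed within 1.4-fold.
AC097532.1: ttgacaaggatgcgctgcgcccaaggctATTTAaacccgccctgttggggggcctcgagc
C22orf34: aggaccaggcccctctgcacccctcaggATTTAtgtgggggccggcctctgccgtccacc
AC099654.1: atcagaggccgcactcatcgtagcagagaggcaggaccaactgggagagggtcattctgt
AC004448.2: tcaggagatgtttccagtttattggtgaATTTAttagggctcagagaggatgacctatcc
CYTOR: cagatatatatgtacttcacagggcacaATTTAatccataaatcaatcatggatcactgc

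The longer AU-rich nonamer TTATTTATT is rare in these genes. The 3 lincRNA genes compared between the siRNA libraries that had 4 or more overlapping copies are shown next, with the run of nonamers in capitals. NUP50-DT was at 18.7 with control siRNA and 12.4 with AUF1 siRNA, OSMR-AS1 at 4.66 and 13.0, and AC108471.2 at 6.14 and 11.96, all in scaled FPKM, the unit defined with the levels below. These 3 genes therefore lay on both sides of the control.
NUP50-DT: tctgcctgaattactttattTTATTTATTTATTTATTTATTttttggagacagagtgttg
OSMR-AS1: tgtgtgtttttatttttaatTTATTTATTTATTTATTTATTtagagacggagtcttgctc
AC108471.2: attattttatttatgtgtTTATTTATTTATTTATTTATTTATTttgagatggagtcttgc

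Expression was given by the authors as FPKM, fragments per kilobase of transcript scaled to the mapped fragments of the library, for each transcript. FPKM was summed per gene over transcripts of 300 nt or more and scaled between libraries, and levels below are in this scaled FPKM. The HNRNPD level checked the labels in part. It was 295 with control siRNA, 311 with the empty vector, 165 with AUF1 siRNA and 2986 to 4841 in the 5 overexpression libraries. A level summed per gene cannot tell the isoform labels, or the control libraries, apart. Relative depth, read from the ratio of deposited coverage to FPKM, was highest with p42 (0.345) and lowest with all isoforms together (0.213), with 0.246 for control siRNA and 0.322 for AUF1 siRNA. Of 5 HEK293 marker genes 4 were in the tables and all 4 had a mean of 5 or more over the 8 libraries, with a summed level of 224 to 271. Of 7 fibroblast markers 0 had such a mean, and the highest single value was COL1A1 at 5.59 with p45. Of 6 cervical carcinoma markers, 4 had such a mean, with sums from 37.5 (p45) to 327 (AUF1 siRNA) and 310 with control siRNA; CDKN2A held most of that range, from 0 with p45 to 249 with AUF1 siRNA. In bulk RNA, fewer cells that express a gene and less RNA per cell cannot be told apart.

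Most lincRNA genes were scarce. 3426 of the 4124 were above 0 in at least 1 library, 1423 in all 8, and 698 were listed at 0 in every library. A mean of 1 or more over the 8 libraries was reached by 1150, of 5 or more by 282, of 20 or more by 71 and of 100 or more by 11. The share at 5 or more was 6.84%, against 12.3% of antisense long noncoding genes and 43.7% of protein-coding genes. The transcripts were short, with a median longest length of 653 nt against 2902 nt for protein-coding genes, and 3061 of the genes were represented by a single transcript. The label was checked against position: in hg19, the build of the tables, 316 of the lincRNA genes overlapped the span of a protein-coding gene. Strand use was not stated in the sources used here, so for those genes reads of the 2 partners could not be separated.

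The abundant end was led by PVT1, the host of several microRNAs beside MYC on chromosome 8 (128806779 to 129113499 in hg19). PVT1 was at 346 with control siRNA, 459 with AUF1 siRNA and 461 with empty vector. The overexpression libraries, always listed below in the order p37, p40, p42, p45, all isoforms, had 454, 487, 470, 403 and 453. The control siRNA library was the lowest and the other 7 lay close together. AC097532.1, a 3-exon transcript of 322 nt on chromosome 2 (133043368 to 133051950, minus strand), was at 186 with control siRNA, 644 with AUF1 siRNA, 184 with empty vector, and 281, 307, 249, 289 and 303 in the overexpression libraries. The AUF1 siRNA library stood above all others there, and both control libraries were the lowest. MIR4435-2HG, a microRNA host on chromosome 2, ranged from 148 (control siRNA) to 246 (all isoforms), with 240 for AUF1 siRNA.

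AC004448.2, on chromosome 17, was at 230 with control siRNA and 204 with AUF1 siRNA, with 146 to 222 in the other libraries. LINC01609 was at 186 and 212, with 151 to 227 elsewhere. CYTOR, known for promoting cell growth in several cancers, was at 122 and 139, with 125 to 163 elsewhere. These 3 abundant genes showed little difference between the siRNA libraries. HCG17, in the major histocompatibility region of chromosome 6, was at 131 and 102 and reached 187 with p42. MIR646HG was at 102 and 143, and AC017091.1 at 118 and 135. AC025741.1 was at 101 with control siRNA, 188 with AUF1 siRNA and 80.7 to 111 in the other 6 libraries. The gene that GENCODE lists as a lincRNA under the symbol ZNF503, which overlaps the coding gene of that symbol, was at 100.3 in both, and LINC00504 at 72.9 and 101. Together these 12 genes held 24.3% of the summed lincRNA level.

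**Figure D1:**
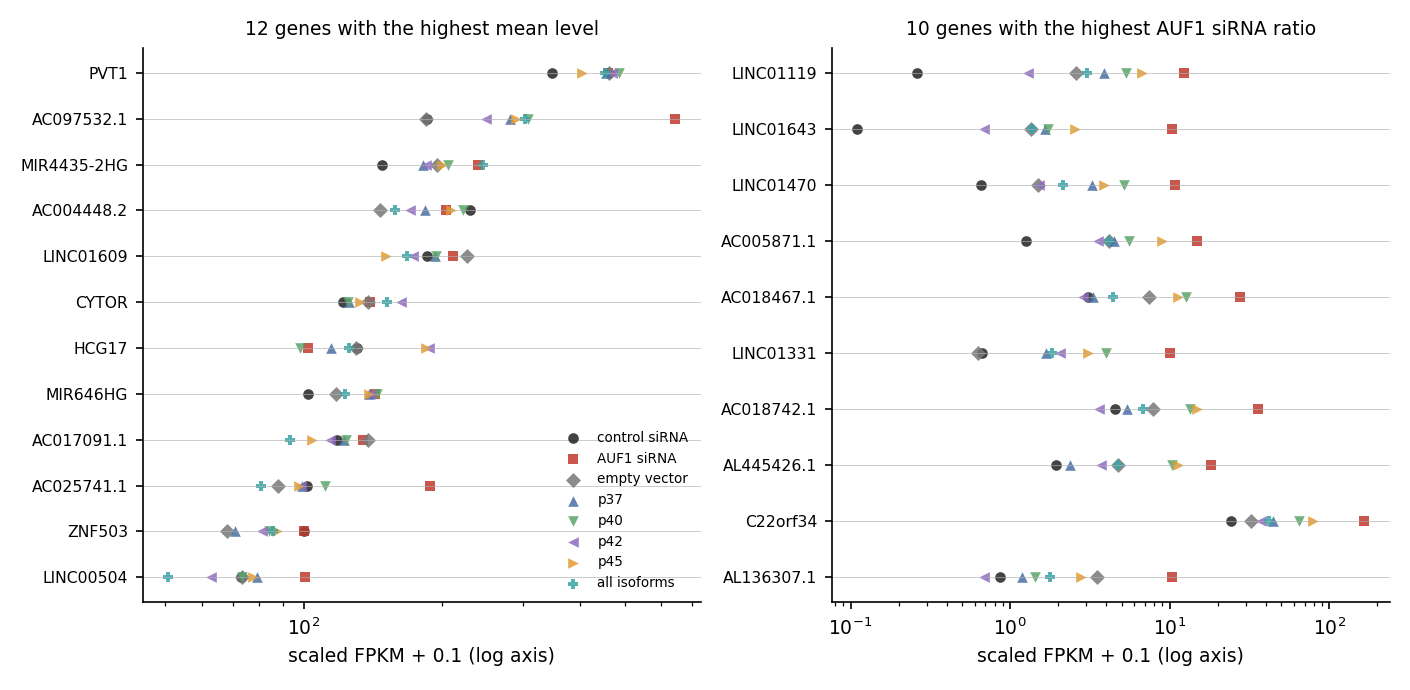
Scaled FPKM plus 0.1 (log axis) of the 12 lincRNA genes with the highest mean level (left) and the 10 with the highest ratio of AUF1 siRNA to control siRNA among those past 2-fold against both controls (right); each point is 1 library. On the left the libraries mostly cluster, with AC097532.1 at 644 in AUF1 siRNA against 184 to 307 elsewhere; on the right the AUF1 siRNA point is the highest for every gene, which the choice of these genes favours.

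More lincRNA genes were detected with AUF1 siRNA than in any other library, and so were more genes of all kinds. Over all genes, 27566 were above 0 with AUF1 siRNA and 24565 with control siRNA. The empty vector had 24967 and the overexpression libraries 25254 to 26135. Of lincRNA genes, 2820 were above 0 and 426 at 5 or more with AUF1 siRNA, against 2080 and 225 with control siRNA. The counts were 2184 and 249 with empty vector, and 2252 to 2463 and 251 to 349 in the overexpression libraries. Their summed level was 11987 with AUF1 siRNA, 6933 with control siRNA, 7773 with empty vector, and 8028, 8881, 8107, 9748 and 8227 in the overexpression libraries. The p45 library thus came second and control siRNA last. As a share of all length-weighted FPKM this was 1.04% with AUF1 siRNA, 0.604% with control siRNA, 0.786% with empty vector and 0.715% to 0.963% in the overexpression libraries. Transcripts assembled outside the annotation numbered 11813 with AUF1 siRNA and 7198 to 10217 in the other libraries, while their share of length-weighted FPKM was highest with p42 (27.5%), then AUF1 siRNA (26.1%), and 18.7% to 23.9% elsewhere. Of 354 olfactory receptor genes, which HEK293 cells largely do not express, 86 were above 0 with AUF1 siRNA and 37 to 63 elsewhere. Their part in the lincRNA levels was not tested. The p42 library, the deepest by the coverage ratio, had 2438 lincRNA genes above 0 and 270 at 5 or more.

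883 lincRNA genes were above 0 with AUF1 siRNA and at 0 with control siRNA, and 143 the reverse. At a level of 5 or more in the library where the gene was seen, the counts were 27 and 5. Over all genes those latter counts were 362 and 254. The first pair of counts was not made over all genes, so it shows nothing particular to lincRNA genes. Genes of all kinds above 0 also numbered more with AUF1 siRNA, 27566 against 24565 with control siRNA.

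The AUF1 siRNA comparison asked how RNA levels differ when AUF1 is reduced. A gene was compared where it was above 0 in both libraries and averaged 5 or more over them, and its ratio is log2 of (level + 1) with AUF1 siRNA over (level + 1) with control siRNA. A gene counted as higher from a ratio of 1 up and as lower from -1 down, which is 2-fold on this scale. Of 315 lincRNA genes compared, 127 were higher (40.3%), where 10.9% of all 9634 genes compared were higher. Only 5 were lower, where 4.98% of all genes were lower. The median lincRNA ratio was 0.69, with quartiles of 0.12 and 1.51, and 251 of the 315 were above 0. Protein-coding genes had a median of -0.06 with 9.38% higher, and antisense long noncoding genes a median of 0.24 with 19.2% higher.

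**Figure D2:**
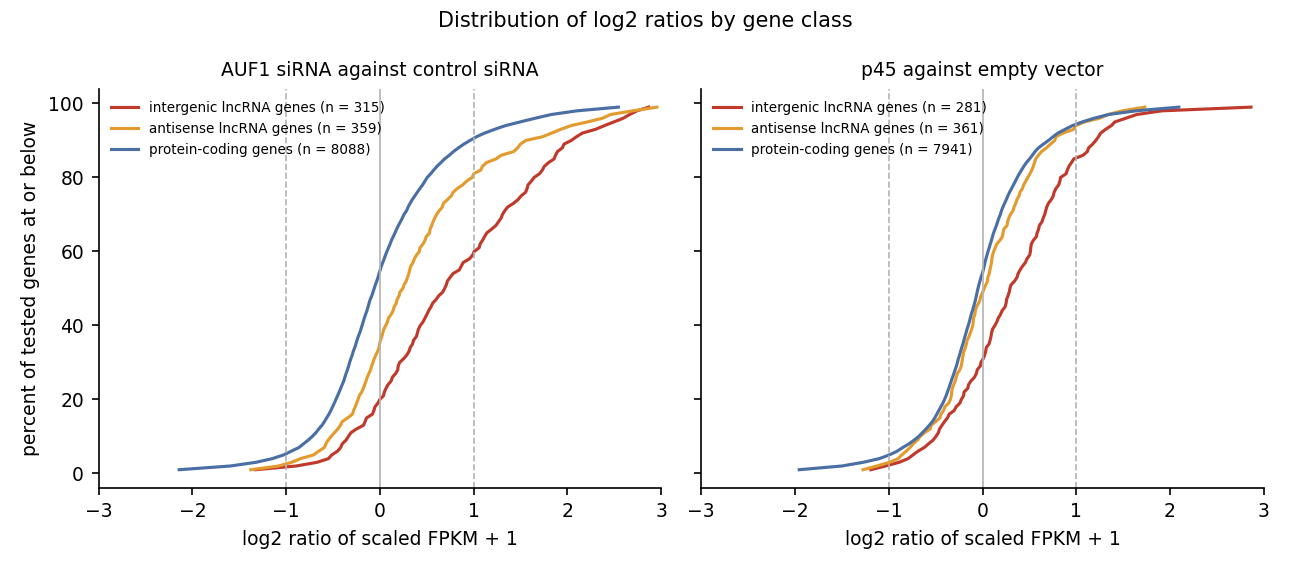
Cumulative percent of compared genes at or below each log2 ratio for lincRNA genes (red), antisense long noncoding genes (orange) and protein-coding genes (blue); left, AUF1 siRNA against control siRNA, right, p45 against empty vector, with dashed lines at 2-fold. The lincRNA curve lies to the right of the others in both panels, with medians of 0.69 (left, n = 315) and 0.29 (right, n = 281).

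A filter that averages the 2 compared libraries admits genes through the library where they are high. A filter on the 6 libraries outside the comparison instead compared 270 lincRNA genes. Of these, 89 were higher (33.0%), where 11.0% of all genes were higher, and 9 were lower, where 6.38% of all genes were. The median was 0.52. By the mean level in those 6 libraries, 40.1% of lincRNA genes between 5 and 10 were higher, 33.3% between 10 and 20, and 17.9% from 20 up. For all genes the corresponding shares were 15.5%, 11.6% and 6.91%. The share thus declined with level in lincRNA genes and in all genes, and was larger for lincRNA genes in each of the 3 ranges.

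The authors' tables give confidence bounds for each transcript's FPKM within its library, which cover counting and read assignment and not the variation between cultures. Among 131 compared lincRNA genes with a single transcript, the bounds of the 2 libraries lay apart, with AUF1 siRNA higher, for 47 (35.9%), where 11.9% of all 1522 such genes did. They lay apart with AUF1 siRNA lower for 3, where 15.2% of all such genes did. Of the 53 called higher, 42 had bounds apart, where 113 of the 145 such genes called higher over all genes did. AC097532.1 had bounds of 155 to 217 with control siRNA and 594 to 694 with AUF1 siRNA.

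Against the empty vector, the other control, 118 of 337 lincRNA genes were higher with AUF1 siRNA (35.0%), where 9.99% of all genes were, and 8 were lower, where 4.82% of all genes were. Of the 127 higher against control siRNA, 94 also exceeded 2-fold against the empty vector, and 117 exceeded it against control siRNA when each transcript's FPKM was weighted by its length. That length-weighted sum had 96 of 242 lincRNA genes higher (39.7%), where 6.11% of all genes were. The AUF1 siRNA library was the highest of all 8 for 112 of the 127, and at least 2-fold above each of the other 7 for 15. These counts within the 127 reuse the AUF1 siRNA library that the 127 were chosen by, which favours them. They were not made for all genes called higher. No ratio was used to choose the 282 lincRNA genes with a mean of 5 or more over the 8 libraries. That mean includes the AUF1 siRNA library, however, so genes could be admitted through a high level there. The highest library was AUF1 siRNA for 118 of the 282 (41.8%), against 16.4% of all genes and 21.8% of antisense long noncoding genes at that level. The lowest library was control siRNA for 99 (35.1%), against 18.8% of all genes and 29.8% of antisense long noncoding genes. Between the controls themselves, 18 of 223 lincRNA genes were higher with empty vector than with control siRNA (8.07%), where 5.68% of all genes were, with a median of 0.15.

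The most abundant gene among the highest ratios was C22orf34, a multi-exon locus on chromosome 22 (49808176 to 50051190, minus strand) with no established function. C22orf34 was at 24.2 with control siRNA, 166 with AUF1 siRNA, 32.3 with empty vector, and 44.3, 64.8, 37.02, 79.3 and 41.6 in the overexpression libraries. The AUF1 siRNA level stood above all others and p45 and p40 came next. Its ratio of AUF1 siRNA to control siRNA was 2.73, or 2.51 by the length-weighted sum, and that of AC097532.1 was 1.79.

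AC018742.1, a long locus on chromosome 2, was at 4.45 with control siRNA, 35.5 with AUF1 siRNA, 7.81 with empty vector, and 5.28, 13.3, 3.48, 14.7 and 6.70 in the overexpression libraries, a ratio of 2.74. AC018467.1, also on chromosome 2, was at 2.97 and 27.5 in the siRNA libraries, 7.36 with empty vector, and 3.21, 12.6, 2.76, 11.1 and 4.32 with overexpression, a ratio of 2.85. AL445426.1 on chromosome 1 was at 1.85 and 18.0, 4.62 with empty vector, and 2.26, 10.2, 3.64, 11.2 and 4.64, a ratio of 2.74. In these 3 genes p40 and p45 were the 2 libraries next below AUF1 siRNA.

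The remaining 6 of the highest ratios came from genes near the limit of detection with control siRNA. LINC01119 was at 0.160 with control siRNA and 12.2 with AUF1 siRNA, a ratio of 3.51 that was 1.79 by the length-weighted sum. LINC01643 was at 0.00986 and 10.3 (3.48), and LINC01470 at 0.560 and 10.7 (2.91, or 1.76 length-weighted). AC005871.1 was at 1.16 and 14.8 (2.87), LINC01331 at 0.569 and 9.89 (2.80), and AL136307.1 at 0.763 and 10.3 (2.68). Their levels in the other 6 libraries lay between 0.531 and 8.89. 

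The 5 lower genes were LINC00265, AC008948.1, AC108463.2, MIR503HG and LINC00630, the last of which, with AC108463.2, is named because the count is small. LINC00265 was at 26.9 with control siRNA, 3.73 with AUF1 siRNA, 17.6 with empty vector, and 3.703, 13.4, 22.5, 15.3 and 14.9 in the overexpression libraries. Its low libraries were AUF1 siRNA and p37, and its ratio of -2.56 became -0.83 by the length-weighted sum, short of 2-fold. AC008948.1 was at 10.1 and 2.26 (-1.77), AC108463.2 at 7.92 and 2.44 (-1.37), MIR503HG at 10.4 and 3.42 (-1.36) and LINC00630 at 45.03 and 20.6 (-1.09). Of the 5, LINC00265 and AC008948.1 also exceeded 2-fold against the empty vector.

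The lists of lincRNA genes with known roles had few genes that could be compared, too few to set their shares against others. Of 35 microRNA host genes, 12 were compared between the siRNA libraries, and 2 were higher (16.7%, where 10.9% of all genes were) and 1 lower, with a median of 0.36. MIR3681HG was at 2.47 with control siRNA and 14.8 with AUF1 siRNA, but at 12.2 with empty vector, and MIR583HG was at 2.83 and 7.74, with 5.95 in empty vector. For MIR3681HG, 70.3% of the FPKM came from transcripts with a low-data status. MIR503HG, whose locus encodes microRNAs induced as cells leave the cycle, was the lower one. The hosts of the best known microRNAs differed less: MIR34AHG, host of the p53-induced miR-34a, was at 38.1 and 46.9, MIRLET7BHG, host of let-7 family members, at 22.9 and 23.6, MIR29B2CHG at 29.3 and 39.97, MIR99AHG at 33.7 and 40.4, MIR181A1HG at 23.8 and 24.5, and MIR2052HG at 6.88 and 5.07.

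Genes of the X inactivation centre, the region that controls silencing of an X chromosome, varied between libraries. FTX, a positive regulator of XIST, was at 12.1 with control siRNA, 24.98 with AUF1 siRNA, 17.1 with empty vector, and 47.3, 0, 85.7, 80.2 and 52.4 in the overexpression libraries. The value listed at 0 with p40 stands apart from the other 7 and gives no ratio. JPX, another activator of XIST, was at 6.57 and 3.67 in the siRNA libraries, 10.6 with empty vector and 3.57 to 6.49 in the overexpression libraries. Both JPX and FTX stayed under 2-fold with AUF1 siRNA, at -0.70 and 0.99.

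Of the p53 and DNA damage list 2 genes were compared and neither was called. TP53TG1, a p53-induced RNA, was at 10.2 and 4.73 (-0.97), and LINC-PINT, a p53 target that works with the Polycomb complex, was at 14.3 and 18.7 (0.36). For LINC-PINT, 84.0% of the FPKM came from transcripts with a low-data status, and its bounds with AUF1 siRNA were 2.54 to 42.1. Of the cancer and growth list 6 were compared and 0 called, with a median of 0.12. They were PVT1 and CYTOR, given above, FTX, CRNDE at 17.0 and 13.1, LINC00467 at 8.61 and 8.28, and LINC00958 at 12.2 and 12.6. No gene of the pluripotency and development list was compared. LincRNA genes named by LINC and a number were higher in 34 of 86 cases (39.5%), those with clone or accession names in 80 of 168 (47.6%), and those with other symbols in 13 of 61 (21.3%).

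Position relative to coding genes was examined next. The share of compared lincRNA genes that were higher with AUF1 siRNA was 33.3% of 27 that overlapped a protein-coding span, 25% of 36 within 1 kb, 36.7% of 30 at 1 to 10 kb, 43.3% of 134 at 10 to 100 kb and 45.5% of 88 farther than 100 kb. Without the genes that overlapped a coding span, 118 of 288 were higher (41.0%). The nearest coding gene could itself be compared for 75 of the 127 higher lincRNA genes and was higher for 15 of these (20%). For the other lincRNA genes it was higher in 10 of 109 (9.17%). The median ratio of the neighbours was 0.21 beside higher lincRNA genes and 0.01 beside the others. Where the neighbour lay within 10 kb without overlap, it was higher for 0 of 9 higher lincRNA genes with a comparable neighbour. Higher lincRNA genes were found on 18 of the 22 chromosomes that had a compared one, with 19 of 39 on chromosome 5, 16 of 35 on chromosome 2 and 15 of 33 on chromosome 1.

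Transcript sequence was available for all 315 compared lincRNA genes, and for 267 it had the deposited length. Searching the transcript strand, ATTTA was present in 63 of the 127 higher genes (49.6%) and in 118 of the 188 others (62.8%). Across all 4093 lincRNA genes with a sequence the share was 59.2%, and for compared protein-coding genes, whose transcripts are longer, 83.7%. The higher lincRNA transcripts had a median length of 649 nt and the others 748 nt, and longer transcripts more often hold a short motif. Among lincRNA genes without ATTTA 47.8% were higher. In the 3 groups with it, ordered by copies per kilobase, 33.3%, 33.3% and 36.7% were higher. In the same order the shares over all genes were 14.9%, 14.0%, 9.68% and 6.96%. For protein-coding genes they were 13.0%, 13.5%, 8.30% and 5.71%, and for antisense long noncoding genes 20.2%, 28%, 21.1% and 13.3%. A smaller share in the group with most copies than without ATTTA was thus not particular to lincRNA genes. TTATTTATT, which contains ATTTA, was present in 9 compared lincRNA genes (2.86%), of which OSMR-AS1 alone was higher, at 1.30, while 6 of the 9 were above 0. A match here is a match of letters and not a binding site.

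GC content was also compared. Its median was 48.5% in the higher lincRNA transcripts and 46.6% in the others, and T content was 24.2% and 25.1%. Over 4 GC ranges holding equal numbers of lincRNA genes, 22.8%, 46.8%, 39.7% and 51.9% of lincRNA genes were higher, from the lowest range to the highest. In the same GC ranges the shares for protein-coding genes were 4.67%, 7.06%, 9.19% and 15.4%, and for antisense long noncoding genes 17.5%, 9.76%, 23.9% and 25.7%. LincRNA genes had the larger share in each range, and within every class the top range exceeded the lowest. The part of GC content in the difference between the libraries was not tested. The higher lincRNA genes spanned a median of 51946 bp of genome and the others 34093 bp.

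**Figure D3:**
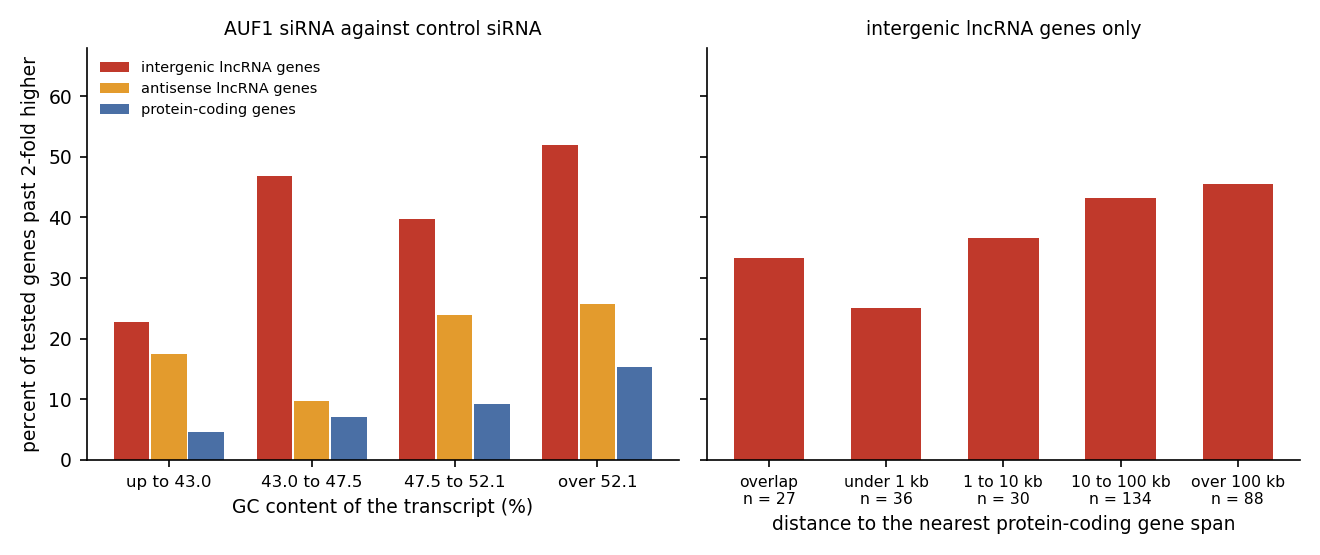
Percent of compared genes past 2-fold higher with AUF1 siRNA. Left, by GC content of the transcript in 4 ranges of about equal lincRNA numbers, for lincRNA (red), antisense (orange) and protein-coding genes (blue); right, lincRNA genes by distance to the nearest protein-coding span, with the number compared. The lincRNA bars run from 22.8% to 51.9% on the left and from 25% to 45.5% on the right.

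Overexpression of each isoform was compared with the empty vector in the same way. These 5 comparisons share the empty vector library, so their values are given side by side. With p37, 10 of 244 lincRNA genes were higher (4.10%), where 3.96% of all genes were, 10 were lower, where 4.31% of all genes were, and the median was 0.00. With p42, 15 of 249 were higher (6.02%), where 3.94% of all genes were, 10 were lower, where 4.16% of all genes were, and the median was 0.02. Against the empty vector, the p37 share of higher genes was within 1 percentage point of that of all genes. Against control siRNA instead, 20 of 236 were higher with p37 (8.47%), where 5.25% of all genes were, and 19 of 237 with p42 (8.02%), where 5.5% of all genes were.

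With p40, 23 of 270 lincRNA genes were higher (8.52%), where 4.92% of all genes were, 9 were lower, where 4.41% of all genes were, and the median was 0.15. With all isoforms together, 19 of 253 were higher (7.51%), where 4.12% of all genes were, 11 were lower, where 4.46% of all genes were, and the median was 0.10. With p45, 42 of 281 were higher (14.9%), where 5.95% of all genes were, 7 were lower, where 4.68% of all genes were, and the median was 0.29. Protein-coding genes in the p45 comparison had a median of -0.05 and antisense long noncoding genes 0.02. With control siRNA as the reference, 42 of 259 were higher with p40 (16.2%), where 6.31% of all genes were, and 2 were lower, where 4.39% of all genes were. For all isoforms 18 of 241 were higher (7.47%), where 5.87% of all genes were. For p45 63 of 271 were higher (23.2%), where 7.08% of all genes were. With p45, 28 were past 2-fold higher against both controls. Both calls use the p45 library, and that count was not made over all genes. By the length-weighted sum, lincRNA genes past 2-fold either way numbered 29 of 208 with p45, where 5.58% of all genes were, 23 of 207 with p40 (4.67% of all genes), 12 of 183 with p37 (3.9%), 15 of 187 with p42 (4.22%) and 16 of 197 with all isoforms (4.07%).

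**Figure D4:**
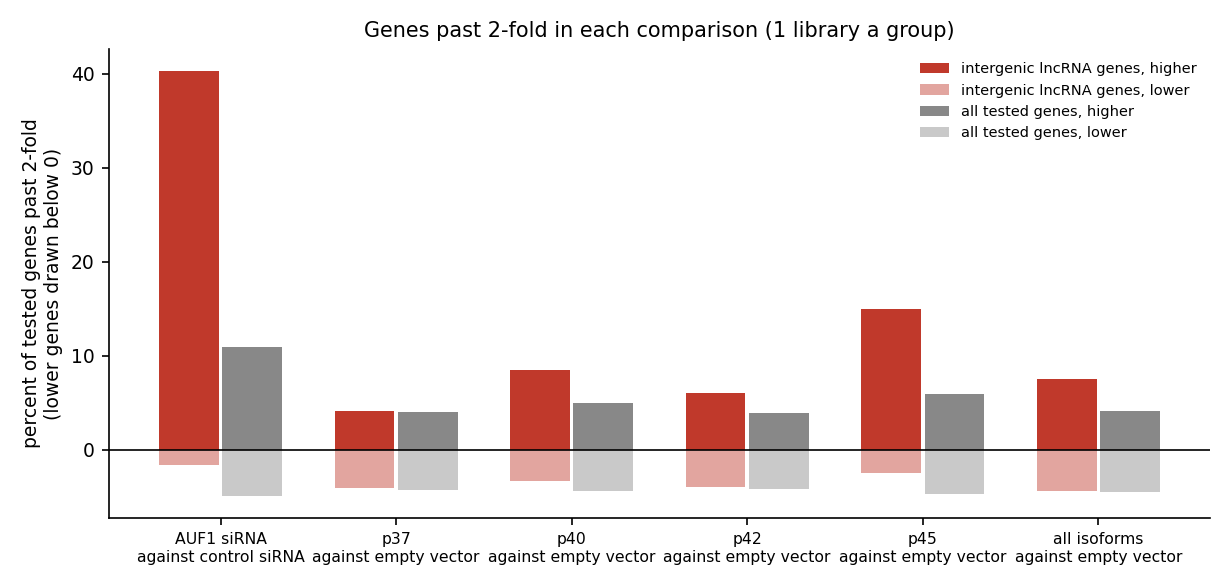
Percent of compared genes past 2-fold in each comparison, for lincRNA genes (red) and all genes (grey); higher genes are drawn above 0 and lower genes, paler, below 0. The share of lincRNA genes higher is 40.3% with AUF1 siRNA, 14.9% with p45 and 4.10% to 8.52% with the other constructs.

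The siRNA comparison and the overexpression comparisons share no library, so their lists can be set against each other. Of 238 lincRNA genes compared in both, 34.03% were higher with AUF1 siRNA and 14.7% with p45. 25 were higher with AUF1 siRNA and with p45, which is 30.9% of the 81 higher with AUF1 siRNA and 71.4% of the 35 higher with p45. Over all 8583 genes compared in both, 164 were higher in both, which is 20.8% of 787 and 34.7% of 472, where 9.17% were higher with AUF1 siRNA. For p40 the lincRNA overlap was 12 of 238 compared, or 15.6% of 77 and 54.5% of 22, where 32.4% were higher with AUF1 siRNA. For p37 it was 5 (7.58% of 66 and 62.5% of 8), for p42 it was 7 (11.3% of 62 and 58.3% of 12), and for all isoforms 7 (10.6% of 66 and 53.8% of 13). In these 3 sets 30.1%, 28.7% and 30.3% of the lincRNA genes compared were higher with AUF1 siRNA. Over all genes the shares of the construct's list were 29.5% for p40, 17.3% for p37, 20.2% for p42 and 24.0% for all isoforms. Taking all 127 genes higher with AUF1 siRNA, their median ratio to empty vector was 0.75 with p45 and 0.69 with p40. It was 0.26 with all isoforms, 0.16 with p37 and 0.03 with p42. The other 188 compared genes had medians of 0.11, 0.05, 0.05, 0.00 and 0.05 in the same order. The libraries with reduced AUF1 and with p45 thus shared 25 higher lincRNA genes, although HNRNPD was at 165 in the first and 3600 in the second. Olfactory receptor genes above 0 numbered 63 with p45, 57 with p40, 61 with p37, 56 with p42, 46 with all isoforms and 43 with empty vector; their part in these values was not tested.

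AC010880.1 on chromosome 2 was at 4.77 with control siRNA, 24.8 with AUF1 siRNA, 1.503 with empty vector, and 4.23, 13.5, 8.76, 25.9 and 7.58 in the overexpression libraries. Its ratio was 2.16 with AUF1 siRNA, 3.42 with p45 and 2.54 with p40. LINC01358 was at 3.65 and 14.2 in the siRNA libraries, 0.549 with empty vector, and 2.82, 8.06, 3.31, 9.60 and 3.66 with overexpression. PSMG3-AS1, which overlaps the proteasome chaperone gene PSMG3, was at 17.1 with AUF1 siRNA, 20.3 with p45 and 22.4 with all isoforms, 1.14 with empty vector and 1.46 with p37. It was listed at 0 with control siRNA, p40 and p42, so by summed FPKM its libraries fell into a high and a low set. By the length-weighted sum it was only at 1.66 with AUF1 siRNA, 1.95 with p45 and 2.14 with all isoforms, against 0.765 with empty vector. The ratios to empty vector were then 0.74 with p45 and 0.83 with all isoforms, short of 2-fold. LINC01605, on chromosome 8, was at 13.2 with AUF1 siRNA, 16.3 with p40 and 10.0 with p45, 2.72 to 4.18 with empty vector, p37 and p42, and listed at 0 with control siRNA and all isoforms.

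FTX, LINC00877, C8orf37-AS1, AL138889.1 and DUBR exceeded 2-fold the same way, higher, in 4 of the 5 overexpression comparisons. How many of all genes did so was not counted. The 5 comparisons share the empty vector library, so a low level there raises all of a gene's ratios. Length-weighted ratios to empty vector were only 0.20 to 0.89 for AL138889.1. They reached 1 only with p40 for LINC00877 (1.08), and with p40 (1.05) and all isoforms (1.03) for DUBR. C8orf37-AS1 kept 1.09 with p37, 1.16 with p42 and 1.37 with all isoforms. FTX kept 1.29 to 2.11 with every construct except p40. LINC00877 was at 3.13 with empty vector, 6.85, 12.2, 9.41, 12.01 and 9.86 with overexpression, and 5.29 and 21.9 with control and AUF1 siRNA. C8orf37-AS1 was at 5.51 with empty vector, 14.1, 12.6, 14.2, 9.398 and 17.4 with overexpression, and 3.09 and 9.63 in the siRNA libraries. AL138889.1 was at 0.588 with empty vector, 13.8, 10.5, 0.943, 13.8 and 10.4, and 8.09 and 21.4 in the siRNA libraries. DUBR, known as a regulator of the neighbouring DPPA2 gene in muscle cells, was at 7.82 with empty vector, 13.4, 18.6, 19.8, 20.6 and 22.8, and 17.4 and 15.9 in the siRNA libraries. For AL138889.1 and DUBR the empty vector was the lowest library, and control siRNA lay within the overexpression range. The empty vector was also the lowest library for LINC00877, with control siRNA below its overexpression range.

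The other genes named for a construct were past 2-fold against both controls in that library, and some of them in others too. AC106017.1 was at 8.997, 6.49, 7.38, 7.39 and 7.76 in the overexpression libraries, 2.002 with empty vector, 3.05 with control siRNA and 14.6 with AUF1 siRNA. Its ratios exceeded 2-fold against both controls with every construct except p40, whose ratio to control siRNA was 0.89. Against the empty vector, however, only p37 reached the mean of 5 needed to be compared, so AC106017.1 counted as higher in 1 overexpression comparison. With p37 LINC01531 was at 9.76 against 2.34 with empty vector and 4.04 with control siRNA. AL365255.1 was lower with p37, at 4.06 against 9.39 and 12.6. With p42 LINC01410 was at 12.3 against 0.395 and 4.03, LINC01934 at 12.4 against 2.28 and 3.29, and AL023584.2, which overlaps HIVEP2, was lower, at 5.09 against 11.7 and 13.1. LINC02337 was lower with p37, p42 and all isoforms, at 2.84, 1.13 and 3.003, against 9.10 with empty vector and 7.13 with control siRNA. With p40 LINC02595 was at 0.552 against 10.2 and 5.30, and AC008948.1 at 2.88 against 7.82 and 10.1. With p45 AC018866.1 was at 1.64 against 9.82 and 11.6, and it was listed at 0 with all isoforms. With all isoforms AC022973.3 was at 2.31 against 8.73 and 6.69, and AC087269.1 at 2.26 against 7.98 and 6.04. Whether the constructs differ from each other in these genes was not tested.

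Across the 8 libraries the median standard deviation of log2 (level + 1) over the 282 lincRNA genes at a mean of 5 or more was 0.42, and 0.38 without the AUF1 siRNA library. The corresponding values were 0.33 and 0.31 for protein-coding genes, and 0.40 and 0.39 for antisense long noncoding genes. The lincRNA median was above the coding one with and without the siRNA library.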

How the data were processed

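Total RNA of 8 transfected HEK293 cultures was amplified and sequenced. Per the submitters' processing notes, reads were processed with TopHat2 2.0.6, Cufflinks 2.0.2 and Cuffdiff on hg19; parameters, annotation release and strand setting are not given in the sources used here. The deposited tables give FPKM, its confidence bounds, a status and coverage (a signal) per transcript, per the file headers. Coverage was used only for relative depth; read counts were not used here.

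Transcripts were matched to GENCODE 29 by identifier (136915 of 160485 Ensembl transcripts), or by deposited gene or cluster where spans overlapped. Coordinates are hg19; sequences are GENCODE 29. FPKM of transcripts of 300 nt or more was summed per gene and scaled by the median of ratios over 11766 genes (factors 0.939 to 1.07). Ratios used a pseudocount of 1, which understates changes of low genes, and genes with a failed status were left out. Each group is 1 library, so there is no test and no p-value. A call is past 2-fold. The calling step was run on simulated data with less spread between libraries than the lincRNA genes showed. That run checks the code and not the calls made here. Python 3.11.15 with pandas 2.3.3, numpy 2.4.6 and matplotlib 3.10.9 was used.

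The genes, lists and settings were chosen with earlier results of these data known. Named genes are the 12 with the highest mean, the 10 highest and lowest called with AUF1 siRNA and the 3 highest and lowest called with each construct that also passed 2-fold against the other control, listed genes with a mean of 5 or more, and genes called the same way in 4 or more overexpression comparisons. Printed sequences are from the most abundant genes past 2-fold against both controls, abundant genes within 1.4-fold, and genes with 4 or more TTATTTATT. Genes of chromosome 8 were left out of these. Summed levels and named genes leave out XIST and genes of the Y chromosome. Alternatives changed the filter, pseudocount, scaling, length filter, summing and control; filtering on the 6 other libraries, removing low-data transcripts and removing genes over coding spans were added after seeing the data.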

Additional observations from a re-analysis of the deposited data

How the results depend on the processing

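No alternative turned the direction of the AUF1 siRNA median. The median ratio with AUF1 siRNA (0.69) was 0.34 at a minimum mean of 20, 0.37 with no minimum and 0.52 with the filter on the 6 other libraries. The count of lincRNA genes higher (127) was 383 at a minimum mean of 1, 424 with no minimum and 13 at 20, and it stayed within 1.5 times under the other 10 settings run. The count lower (5) was 30, 33 and 1 at minimums of 1, none and 20, 9 with the filter on the 6 other libraries, 8 with no length filter, 8 against the other control, 3 by the length-weighted sum and 3 without low-data transcripts. Genes past 2-fold either way at minimums of 1, none and 20 were 122, 151 and 3 with p37 (20 as reported), for p40 176, 206 and 4 (32), for p42 131, 167 and 3 (25), for p45 227, 258 and 6 (49), and for all isoforms 135, 168 and 2 (30). By the length-weighted sum p37 had 12, p42 15, p45 29 and all isoforms 16, and with p37 the filter on the 6 other libraries gave 32. With FPKM as deposited the p37 and p42 medians, 0.00 and 0.02 as reported, turned to -0.04 and -0.07, with 10 higher and 14 lower for p37 and 13 of each for p42, and the p45 median was 0.19. The medians of all genes were then -0.07, -0.10 and -0.12. No paired analysis was possible because each group holds 1 library. The number of libraries, and not their depth alone, limits every comparison, since the spread between cultures was not measured. Genes of a few FPKM rest on few reads.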
